A study of Homo sapiens with 6 samples.

Results

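Regulators and readouts of the epithelial-mesenchymal transition (EMT) were followed in H1, a human embryonic stem cell line, on a pair of laminin coatings. They are 10 genes: SNAI1, SNAI2, ZEB1, ZEB2, TWIST1, VIM, ESRP1, ESRP2, GRHL2 and OVOL1. The genes were taken by symbol for their known roles. The rule uses none of their measured values, but the choice was made with earlier results of these data known. All 10 were found among the 60499 gene IDs of the count and TPM tables, and 7 of them had enough reads to be tested. H1 is an established line. The cells were kept in NutriStem, a defined stem cell medium, for 4 days on laminin-521 alone (LN-521, 3 wells) or on laminin-521 together with laminin-221 (LN-521+LN-221, 3 wells). Both groups thus grew on laminin-521 and differed by the added laminin-221, and the comparison measures how the levels of these genes differed with it. The labels call the wells biological replicates of a single line without saying whether they came from separate cultures, so p-values measure the spread between wells, which may be technical.

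EMT is the passage from a polarised, junction-bound epithelial cell to a motile mesenchymal one. It is driven by zinc finger repressors of the SNAIL and ZEB families and by the helix-loop-helix factors of the TWIST family, which bind E-box sequences and repress E-cadherin and other junction genes. It is opposed by GRHL2 and OVOL1, transcription factors that repress ZEB genes and keep epithelial genes on, and by ESRP1 and ESRP2, RNA-binding proteins that set the epithelial splicing pattern of many transcripts. VIM encodes vimentin, the intermediate filament protein used as a mesenchymal marker. Primed human pluripotent cells form epithelial colonies with E-cadherin, and a full EMT accompanies their exit towards mesoderm.

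The estimated reads assigned to genes numbered 20606400 to 26836700 per library, to 6 significant digits, and all 6 libraries belonged to 1 sequencing batch in the deposited sample sheet. Levels of different genes were compared in TPM, a length-corrected share of all transcripts, and the coatings in CPM, read counts scaled to a common library size. RNAs of the 7SL family took 30.1% to 37.3% of the TPM of a library. The deepest and the shallowest LN-521 libraries, replicates 2 and 1, stood furthest apart, with a chi-square statistic of their counts of 14.1 per degree of freedom, against 2.76 to 6.97 for the other within-coating pairs. This statistic sets the spread against counting noise alone and cannot show whether the wells were separate cultures. All 6 wells were counted as separate samples, as labelled. The labelled identity of the cells was checked on 8 pluripotency markers: all 8 had a mean of at least 10 TPM, among them POU5F1, which encodes OCT4, at 665 to 872 TPM.

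The 10 genes fell into 3 tiers. VIM and ESRP1 were abundant, GRHL2, ESRP2, SNAI1 and OVOL1 were intermediate, and ZEB2, SNAI2, ZEB1 and TWIST1 were below 0.3 TPM in every library. VIM had the highest level, with a mean of 174.9 ± 10.2 TPM (SD over 6 libraries), above 97.2% of the genes that reached 1 TPM in 3 libraries. ESRP1 followed at 67.3 ± 5.28 TPM (SD, 6 libraries), above 92.2% of those genes. GRHL2 stood at 14.97 ± 1.504 TPM, ESRP2 at 10.9 ± 1.01 TPM, SNAI1 at 4.04 ± 0.364 TPM and OVOL1 at 2.29 ± 0.197 TPM (SD, 6 libraries each). Each of these 6 genes lay above the next in 6 of 6 libraries, and the ranges of neighbours did not overlap. The step from OVOL1 to ZEB2 was the widest, at 11.7-fold between means. Below it the ranges of all neighbours overlapped, so the 4 lowest genes could not be ordered. The mesenchymal filament gene and the epithelial splicing gene were thus the 2 highest, and both ZEB genes, SNAI2 and TWIST1 formed the lowest tier.

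**Figure D1:**
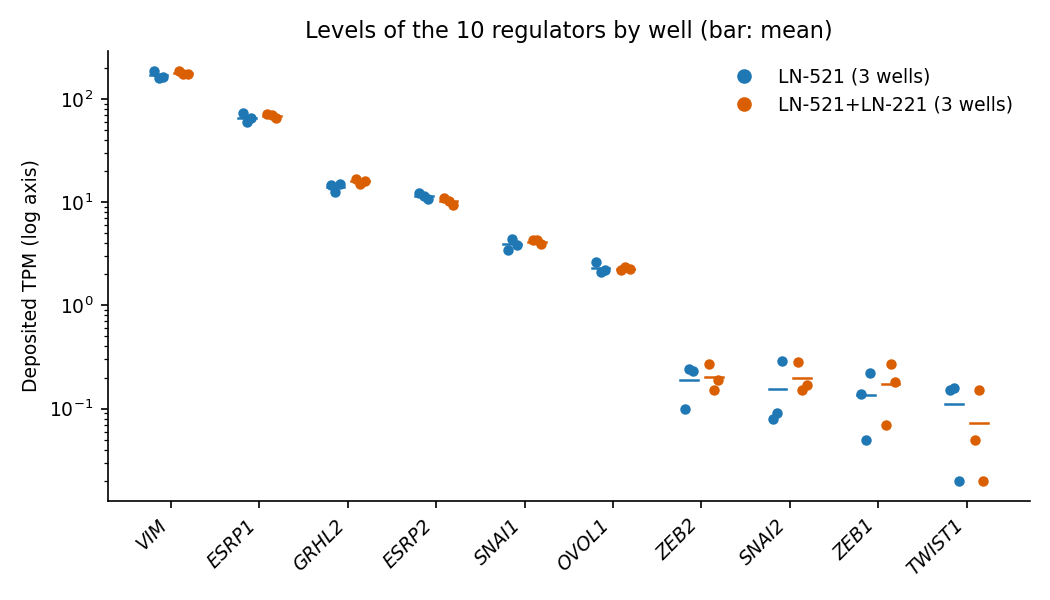
Deposited TPM (log axis) of each of the 10 genes in each well, with LN-521 in blue, LN-521+LN-221 in orange and a bar at the mean of 3 wells. VIM and ESRP1 lie above 50 TPM and the 4 genes on the right below 0.3 TPM on both coatings.

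None of the 7 genes tested passed an adjusted p of 0.05 between the coatings (edgeR quasi-likelihood test, Benjamini-Hochberg over all genes tested), where 2.53% of the 17608 genes tested did. DESeq2 and limma also called none of those they tested, ZEB2 not being among them. With a GC correction, which called 5.3% of all genes tested, none was called either. One of the 7, ESRP2, had an unadjusted p under 0.05, against 14.5% of all genes tested. The CPM of the coatings did not overlap for 2 of the 7, ESRP2 and GRHL2, where 19.9% of all genes tested did not overlap. GRHL2 lay higher with laminin-221, as 10.2% of all genes did without overlap, and ESRP2 lower, as 9.68% did. With 7 genes, these counts are near the background. The median log2 fold change of the 7 genes was 0.03, beside -0.0011 for all genes tested, and the median absolute change was 0.07, beside 0.11. In bulk RNA, fewer cells expressing a gene and less of its RNA per cell cannot be told apart.

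SNAI1 (ENSG00000124216, chr20:49982999-49988886, plus strand, GRCh38), which encodes SNAIL, an early-acting EMT repressor, was the best expressed of the 5 EMT-driving factors. Its CPM was 6.01, 9.14 and 7.59 in the 3 LN-521 wells and 7.61, 8.03 and 7.60 in the LN-521+LN-221 wells. The LN-521 wells spread on both sides of the others, and the groups overlapped. The log2 fold change was 0.03 ± 0.14 (SE; adjusted p = 0.957 by edgeR), with a 95% interval of -0.27 to 0.32. The sign rested on single wells: it was -0.11 without LN-521 replicate 1 and 0.19 without LN-521 replicate 2. The interval leaves room for a change of -17.0% to 24.9%.

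SNAI2, which encodes SLUG and is a hallmark of neural crest and mesenchyme, had 4, 6 and 18 reads on LN-521 against 13, 8 and 10 on LN-521+LN-221. TWIST1 (chr7:19020991-19117672, minus strand), a mesodermal and cranial mesenchyme factor, had 6, 5 and 1 reads against 2, 3 and 1. Both were at the edge of detection on either coating, with overlapping groups. ZEB1 (chr10:31318495-31529814, plus strand), the repressor most closely tied to loss of E-cadherin, had 6, 8 and 13 reads on LN-521 against 6, 11 and 10 on LN-521+LN-221, which sums to 27 reads on each coating. ZEB2 (chr2:144364364-144524583, minus strand), its paralogue, had 8, 11 and 18 against 11, 16 and 13 reads. ZEB2 passed the filter on low counts, and its log2 fold change was 0.27 ± 0.39 (SE; adjusted p = 0.816 by edgeR), with a 95% interval of -0.55 to 1.09. In percent the interval ran from -31.8% to 112.9%. The log2 fold change of ZEB2 was 0.08 without LN-521 replicate 1 and 0.64 without LN-521 replicate 3. Without a filter on low counts the other 3 were tested too, and the edgeR adjusted p was 0.846 for SNAI2, 0.942 for ZEB1 and 0.739 for TWIST1.

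The transcripts of ZEB1 and ZEB2 are the best known targets of the miR-200 family of microRNAs, which silence them in epithelial cells. The 5 mature members are printed here because their seeds recur in both transcripts (RefSeq, GRCh38.p14). Capitals mark the seed, bases 2 to 8, which pairs with the target. The first 3 share one seed and the other 2 share another.
hsa-miR-200b-3p: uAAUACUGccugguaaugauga
hsa-miR-200c-3p: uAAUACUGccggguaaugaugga
hsa-miR-429: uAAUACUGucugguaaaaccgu
hsa-miR-200a-3p: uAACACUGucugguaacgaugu
hsa-miR-141-3p: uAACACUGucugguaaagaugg

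The longest annotated 3′ UTR of ZEB1, of 2549 bases, held 9 matches to these seeds, 6 of CAGTATT and 3 of CAGTGTT on the transcript strand. That of ZEB2, of 5370 bases, also held 9, in 5 and 4. Of the 10162 protein-coding genes with a 3′ UTR of at least 1000 bases, 46.4% held at least 1 match and 0.059% held 9 or more. Per 1000 bases the density was 3.53 in ZEB1 and 1.68 in ZEB2, and 0.738% of those genes were as dense as ZEB2. Of the other 8 genes, ESRP1 had 2 matches, SNAI2 and GRHL2 had 1 each, and SNAI1, TWIST1, VIM, ESRP2 and OVOL1 had none. The density in ESRP1 was 1.27 per 1000 bases, and 1.84% of those genes were as dense. The 3′ UTRs of SNAI1, TWIST1 and VIM had 830, 706 and 322 bases, below the 1000 bases asked of those genes. The first match to each seed in ZEB1 and ZEB2 is shown with its flanks (GENCODE 29 transcripts, the match in capitals).
ZEB1, first CAGTATT match: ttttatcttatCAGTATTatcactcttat
ZEB1, first CAGTGTT match: atcatcagaatCAGTGTTtgtgattgtgt
ZEB2, first CAGTATT match: ctaccatacatCAGTATTtttattattat
ZEB2, first CAGTGTT match: aaaattttgtaCAGTGTTaaggcctaaaa

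These matches are a property of the sequence and show no binding in these cells. Mature microRNAs were not analysed here. The hairpin genes MIR200A, MIR200B, MIR200C, MIR141 and MIR429 were listed at 0 in all 6 libraries. These values were not read as absence of the microRNAs. MIR200CHG, the host transcript of the miR-200c and miR-141 hairpins, was at 1.06 to 3.22 TPM from 5 to 18 reads. Its log2 fold change was -0.71 ± 0.45 (SE; adjusted p = 0.511 by edgeR). MIR205HG, the host of the epithelial miR-205, was at 5.66 to 7.17 TPM with a log2 fold change of 0.04 ± 0.10 (SE; adjusted p = 0.906 by edgeR).

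VIM (ENSG00000026025, chr10:17228259-17237593, plus strand) was measured with the most reads of the 10 genes, 7704 to 9890 per library. Its CPM was 363, 372 and 361 on LN-521 against 371, 368 and 383 on LN-521+LN-221. The highest well was on LN-521+LN-221, but the groups overlapped. The log2 fold change was 0.03 ± 0.05 (SE; adjusted p = 0.821 by edgeR). The 95% interval of the change ran from -4.76% to 9.92%.

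ESRP1 (ENSG00000104413, chromosome 8) and ESRP2 (ENSG00000103067, chr16:68229111-68238102, minus strand) are paralogous epithelial splicing regulators. The CPM of ESRP1 was 249, 236 and 251 on LN-521 against 245, 249 and 239 on LN-521+LN-221, with overlapping groups. Its log2 fold change was -0.0045 ± 0.05 (SE; adjusted p = 0.982 by edgeR), and the 95% interval ran from -7.49% to 7.43%. This value had no stable sign, as it was 0.06 with limma on log2(TPM + 1). The CPM of ESRP2 was 35.8, 39.7 and 36.3 on LN-521 against 33.4, 33.0 and 32.6 on LN-521+LN-221. All 3 wells with laminin-221 lay below all 3 without it. The log2 fold change of ESRP2 was -0.18 ± 0.07 (SE; adjusted p = 0.249 by edgeR), with a 95% interval of -0.33 to -0.03. This is the smallest adjusted p among the 7 genes, and it does not pass the threshold. It was 0.0920 without LN-521 replicate 1, and 0.231 to 0.820 in the alternatives that kept all libraries. On the deposited TPM scale the ESRP2 wells overlapped, at 12.3, 11.5 and 10.7 TPM against 11.1, 10.2 and 9.40 TPM.

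GRHL2 (ENSG00000083307, chromosome 8), a grainyhead-like activator of epithelial junction genes, had a CPM of 63.2, 63.2 and 62.0 on LN-521 against 68.4, 67.8 and 67.7 on LN-521+LN-221. All 3 wells with laminin-221 lay above the others, the opposite order to ESRP2. The log2 fold change was 0.11 ± 0.06 (SE; adjusted p = 0.386 by edgeR), and its 95% interval, from -0.0080 to 0.24, reached 0. OVOL1 (ENSG00000172818, chr11:65787022-65797219, plus strand), a zinc finger repressor that restrains ZEB genes, had a CPM of 8.76, 8.20 and 7.67 on LN-521 against 6.84, 8.30 and 8.19 on LN-521+LN-221. The lowest well was replicate 1 of LN-521+LN-221, and the groups overlapped. The log2 fold change of OVOL1 was -0.07 ± 0.12 (SE; adjusted p = 0.835 by edgeR), and it was 0.0098 without that well.

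**Figure D2:**
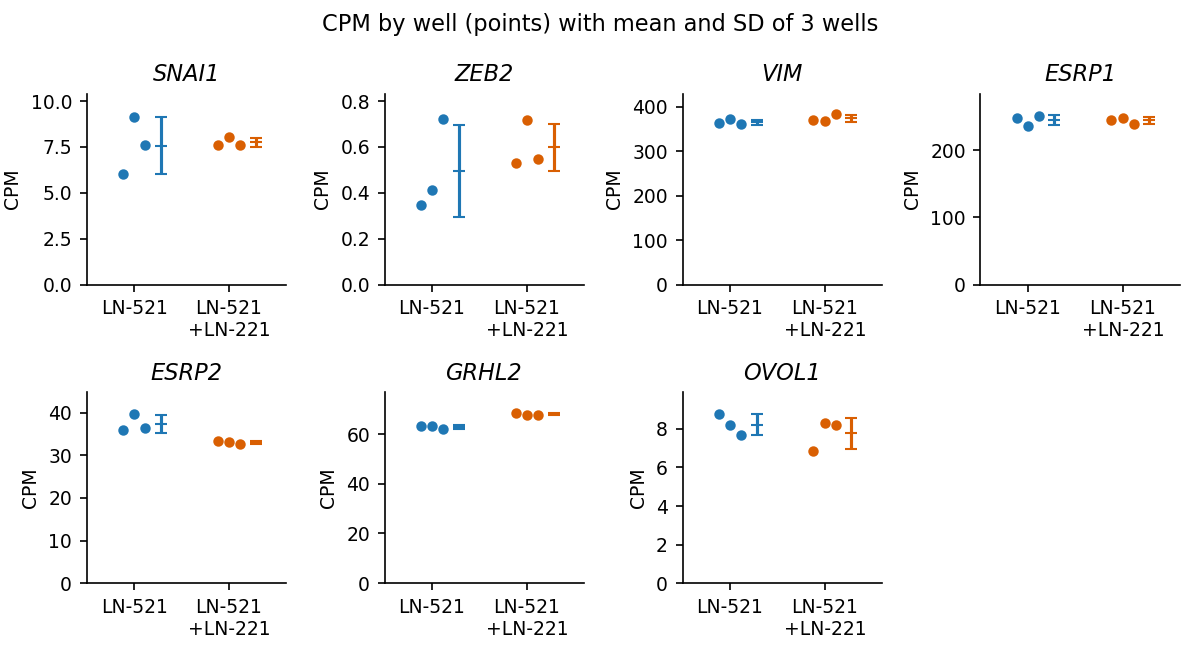
CPM of the 7 genes tested in each well (points), with the mean and SD of 3 wells beside them and LN-521 in blue, LN-521+LN-221 in orange. The coatings separate without overlap for ESRP2 and GRHL2, and overlap for the other 5.

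**Figure D3:**
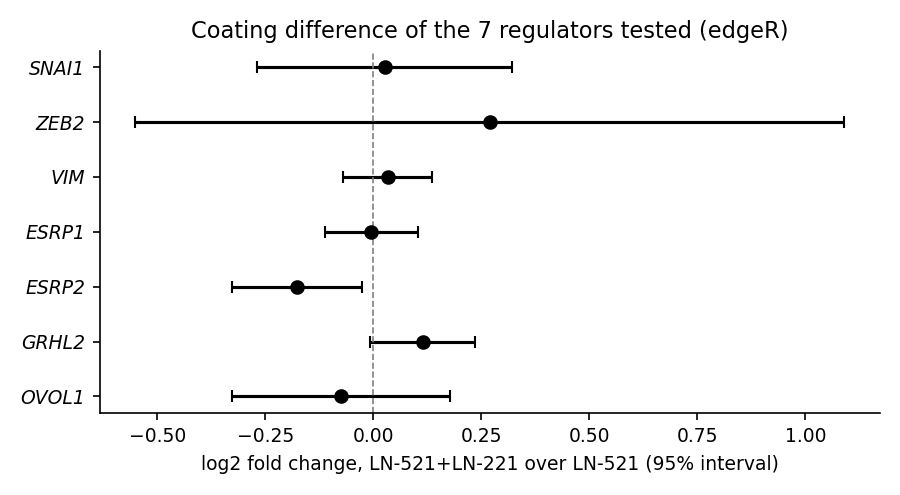
Log2 fold change, LN-521+LN-221 over LN-521, of the 7 genes tested (points) with 95% intervals from the edgeR fit (bars). The intervals are narrowest for VIM and ESRP1 and widest for ZEB2, and that of ESRP2 lies below 0 before adjustment for the number of genes.

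The libraries were stranded, per the labels' protocols, but the strand setting of the counting is not given in the sources used here. Reads of overlapping genes can be confused where counting ignores strand. In the GENCODE 29 annotation 7 of the 10 genes share exonic sequence with a gene on the opposite strand. Of these neighbours, NFATC3, an NFAT family transcription factor opposite ESRP2, had 734 to 936 reads per library and a log2 fold change of 0.0028 ± 0.07 (SE; adjusted p = 0.990 by edgeR). ENSG00000262160 (AC020978.5), on the same strand as ESRP2, had 186 to 267 reads and a change of -0.06 ± 0.11 (SE; adjusted p = 0.863 by edgeR). ZEB1-AS1 had 62 to 95 reads per library, more than ZEB1 itself, and VIM-AS1 had 47 to 55. Neither passed the test (adjusted p = 0.954 and 0.835 by edgeR). ZEB2-AS1 had 1 to 3 reads. OVOL1-AS1, named for OVOL1 but sharing no exonic sequence with it in that annotation, had 0 or 1. AC003986.2 opposite TWIST1, AL133415.1 opposite VIM, AP001207.3 opposite GRHL2 and AP001266.1 opposite OVOL1 had at most 2 reads in a library, and RF01984 and RF01987 opposite ZEB2 were listed at 0. The counts of all 10 genes were whole numbers in all libraries, whereas those of NFATC3 were not whole in any of the 6.

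The wider EMT network was described with 10 further lists of 146 genes, of which 138 were in the table and 118 were tested. Of these 7 passed the threshold, or 5.93%, beside 2.53% of all genes tested: TFAP2C, MBNL3 and FGFR3 were higher on LN-521+LN-221, and RBM47, FN1, THY1 and DES were lower. By direction the background was 1.4% higher and 1.14% lower among all genes tested. The lists were written with earlier results of these data known. Their shares beside the background, here and below, are therefore descriptions and no independent test. With limma on the TPM values none of the 7 passed. Leaving out single libraries gave 3 to 17 calls, the most without LN-521 replicate 1 and 3 each without LN-521 replicate 3, LN-521+LN-221 replicate 2 or LN-521+LN-221 replicate 3.

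Among 24 mesenchymal genes, 21 were tested, none was called higher and 2 were called lower. The median log2 fold change was -0.14, beside -0.0011 for all genes tested. This list, too, was written with earlier results of these data known. An unadjusted p under 0.05 was reached by 9 of the 21, beside 14.5% of all genes tested. All 9 had a log2 fold change below 0: FN1, THY1, COL1A1, MMP2, SPARC, TAGLN, COL6A2, POSTN and ITGA5. Of these, 7 were named after their values were seen. In mean TPM COL1A1 was not lower, at 39.8 on LN-521 against 40.2 on LN-521+LN-221, while the others were. The summed TPM of the list overlapped, at 475 to 509 on LN-521 against 437 to 497 on LN-521+LN-221. FN1, which encodes the matrix glycoprotein fibronectin, had a CPM of 387, 395 and 422 on LN-521 against 293, 296 and 290 on LN-521+LN-221. The groups were well separated, and FN1 fell by 0.45 ± 0.05 on the log2 scale (SE; adjusted p = 5.08e-05 by edgeR). It was called in all 6 fits that left out a library. THY1, the surface glycoprotein CD90 of mesenchymal and of pluripotent cells, had a CPM of 71.8, 88.3 and 92.2 against 67.3, 65.2 and 61.5. Its log2 fold change was -0.38 ± 0.08 (SE; adjusted p = 0.0146 by edgeR), and it was called in 2 of the 6 fits that left out a library: the call was lost without LN-521 replicate 2 or 3 and without LN-521+LN-221 replicate 2 or 3. Of the 6 collagen genes in the list, COL6A1 averaged 62.9 TPM, COL1A2 44.7 TPM, COL6A2 40.1 TPM, COL1A1 40.0 TPM and COL5A1 3.97 TPM, while COL3A1 had at most 1 read in a library. LUM, which encodes the matrix proteoglycan lumican, was listed at 0.

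Among 24 epithelial genes all were tested and none was called in either direction. Their median log2 fold change was -0.04, with 10 of the 24 above 0, and 15 of them averaged at least 10 TPM. The 3 with the highest levels were CLDN6, a claudin of early embryonic epithelium, at 186 to 214 TPM, CDH1, which encodes E-cadherin, at 126 to 162 TPM, and SPINT2, a membrane protease inhibitor, at 130 to 141 TPM. E-cadherin, the classical target of SNAIL and ZEB repression, had a CPM of 610, 592 and 589 on LN-521 against 655, 655 and 649 on LN-521+LN-221. Its wells did not overlap, but its log2 fold change of 0.13 ± 0.05 (SE) did not pass the threshold (adjusted p = 0.198 by edgeR). An unadjusted p under 0.05 was reached by 7 of the 24 genes, beside 14.5% of all genes tested. CDH1, CLDN4 and DSP, with log2 fold changes of 0.13, 0.37 and 0.20, were above 0. RAB25, CDS1, MARVELD2 and LSR, with -0.43, -0.23, -0.18 and -0.16, were below 0. These other genes were named after their values were seen.

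SNAIL and ZEB proteins bind the E-box CAGGTG, read as CACCTG on the other strand. Promoter sequences, the 250 bases before a start site, were matched for 15 of the 24 epithelial genes (RefSeq, GRCh38.p14), with 21 start sites. This E-box was found on either strand in 52.4% of those 21 windows, beside 17.5% of 35116 windows of the same length in all. The epithelial windows were also richer in G and C, with a median of 68.0% against 58.0%. CRB3, a polarity gene of the Crumbs complex, had the most matches, 5, and its window is shown for that reason, with the matches in capitals (chr19:6464021-6464270, plus strand).
CRB3 promoter: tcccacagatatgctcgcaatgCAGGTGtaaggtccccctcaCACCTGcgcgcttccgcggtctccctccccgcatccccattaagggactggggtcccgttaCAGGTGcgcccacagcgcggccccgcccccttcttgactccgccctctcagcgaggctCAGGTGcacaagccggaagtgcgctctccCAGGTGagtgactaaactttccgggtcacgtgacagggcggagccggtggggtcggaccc

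CRB3 itself was at 6.54 to 8.34 TPM, with a log2 fold change of -0.12 ± 0.12 (SE; adjusted p = 0.715 by edgeR). A match is a description of the letters and not a bound site. Among the 10 EMT genes only ZEB1, ZEB2 and VIM had promoter entries. The VIM window and the ZEB2 window held no CAGGTG or CACCTG, and 2 of the 7 ZEB1 windows did.

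The partners of the 10 genes were described by role. Of 14 other EMT-inducing transcription factors 8 were tested and none was called. An unadjusted p under 0.05 was reached by 2 of the 8, beside 14.5% of all genes tested. These were HMGA2 and SOX9, with log2 fold changes of 0.23 and 0.26. TCF3 and TCF4, helix-loop-helix proteins that pair with TWIST factors, averaged 110 and 37.5 TPM, and the chromatin protein HMGA2 averaged 18.9 TPM. In contrast 7 of the 14, among them PRRX1, FOXC2 and GSC, stayed below 0.5 TPM in every library. Of 12 other epithelial transcription factors 8 were tested and 1 was called. TFAP2C, an AP-2 factor of epithelium, trophoblast and germ cells, had a CPM of 31.2, 31.1 and 30.5 on LN-521 against 36.6, 42.1 and 41.0 on LN-521+LN-221, without overlap. TFAP2C rose by 0.37 ± 0.07 on the log2 scale (SE; adjusted p = 0.00940 by edgeR), a call lost without LN-521 replicate 3 and without LN-521+LN-221 replicate 2 or 3. All 17 corepressors and turnover factors of SNAIL and ZEB in the table were tested and none was called. The highest were HDAC2 at 160 TPM, KDM1A at 108 TPM and CTBP2 at 86.5 TPM on average, which encode a deacetylase, a demethylase and a corepressor.

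Besides the ESRP genes, 11 splicing regulators linked to EMT were tested and 2 were called, 1 in each direction. MBNL3, a muscleblind-like RNA-binding protein, had a CPM of 5.71, 3.80 and 3.65 on LN-521 against 8.67, 9.28 and 9.17 on LN-521+LN-221. MBNL3 rose by 1.05 ± 0.15 on the log2 scale (SE; adjusted p = 6.78e-04 by edgeR) and was called in all 6 fits that left out a library. RBM47, an RNA-binding protein of epithelial cells, had a CPM of 24.8, 23.5 and 25.7 against 20.8, 19.1 and 18.1. RBM47 fell by 0.35 ± 0.08 on the log2 scale (SE; adjusted p = 0.0301 by edgeR), a call kept in 2 of the 6 such fits, those without LN-521 replicate 1 or 2. Of 10 genes whose splicing ESRP proteins regulate, FGFR3, a fibroblast growth factor receptor, was called. Its CPM was 67.5, 79.9 and 63.9 on LN-521 against 83.6, 86.5 and 94.8 on LN-521+LN-221, and its fitted log2 change was 0.33 ± 0.08 (SE; adjusted p = 0.0322 by edgeR). FGFR3 was called in 1 of the 6 fits that left out a library, the one without LN-521 replicate 2. Splicing itself was not analysed here, as the tables hold 1 value per gene.

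Of 15 intermediate filament genes, the family of VIM, all were tested and 1 was called. DES, which encodes the muscle filament desmin, had a CPM of 12.9, 18.2 and 20.8 on LN-521 against 7.32, 9.06 and 9.04 on LN-521+LN-221. The groups did not overlap, and DES fell by 1.03 ± 0.16 on the log2 scale (SE; adjusted p = 0.00303 by edgeR). The call was lost in 1 of 6 fits, without LN-521 replicate 2, where its change was of the same sign.

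**Figure D4:**
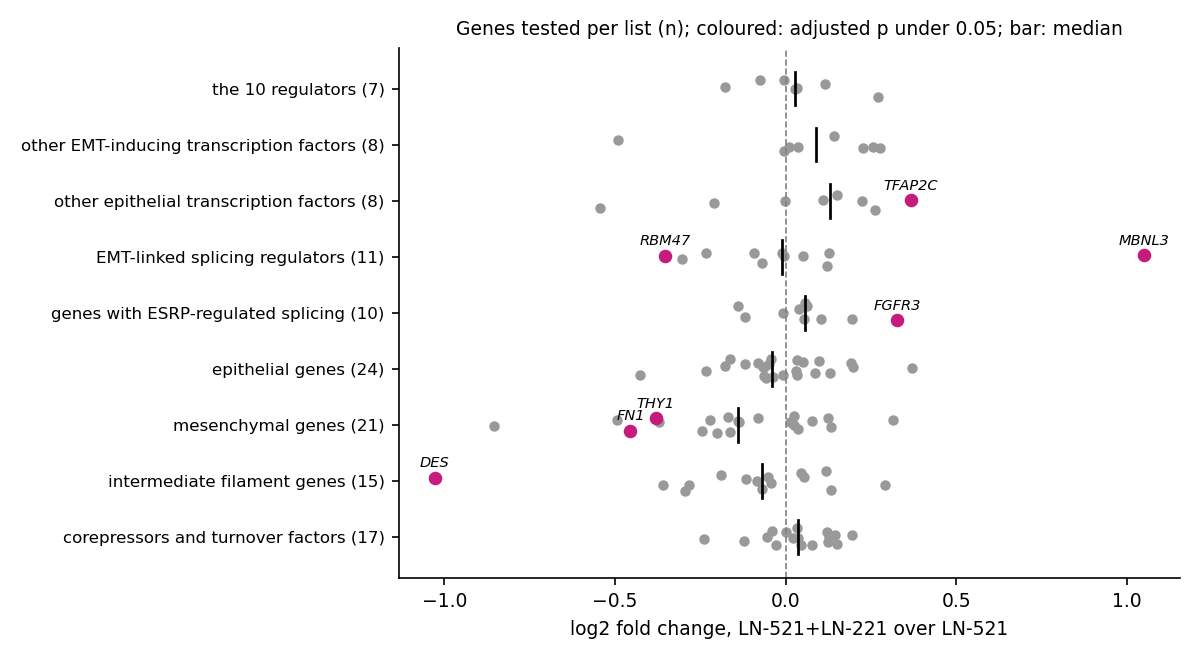
Log2 fold change, LN-521+LN-221 over LN-521, of every gene tested in the 10 regulators and in 8 related lists (points, number tested in brackets), with a black bar at each list's median and genes past an adjusted p of 0.05 coloured and named. The 7 coloured genes lie in 5 lists, and no point of the regulators, the epithelial genes or the corepressors is coloured.

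Markers of the states that these regulators accompany were read in the same libraries. Among all genes tested, 1.4% were called higher and 1.14% lower. Of 8 markers of primitive streak and mesoderm 3 were tested and KDR, a receptor of vascular progenitors that pluripotent cells also express, was called lower (-0.37 ± 0.07, SE; adjusted p = 0.00742 by edgeR). The summed TPM of that list was 27.7 to 36.0 on LN-521 against 23.6 to 28.5 on LN-521+LN-221, most of it KDR itself at 24.5 to 31.8 against 20.3 to 25.1 TPM, and TBXT, MIXL1 and EOMES were each below 0.5 TPM in every library. Of 6 neural crest markers 4 were tested and FOXD3 and ETS1 were called lower, by -1.07 ± 0.14 and -0.38 ± 0.09 (SE; adjusted p = 1.55e-04 and 0.0225 by edgeR). FOXD3 is also a pluripotency factor. The neural crest list summed to 15.6 to 17.6 TPM on LN-521 against 11.9 to 14.4 TPM on LN-521+LN-221. Of 6 definitive endoderm markers 1 was tested and none called, at 0.85 to 1.45 TPM in sum on LN-521 against 0.84 to 1.11 TPM on LN-521+LN-221. Of 6 neural ectoderm markers 2 were tested and DCX, a neuronal microtubule protein, was called lower (-0.43 ± 0.11, SE; adjusted p = 0.0492 by edgeR). That list summed to 1.51 to 2.07 TPM against 1.27 to 1.65 TPM.

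Of 10 fibroblast and mesenchyme markers 6 were tested and THY1 was the one called, and the list summed to 129 to 142 TPM on LN-521 against 117 to 144 TPM on LN-521+LN-221. Of 8 amnion and trophectoderm markers 4 were tested and none was called, and CDX2, GATA3 and ISL1 stayed below 0.5 TPM. Of all genes tested 2.53% were called, and among the 8 pluripotency markers POU5F1, NANOG and TDGF1 were called lower and LIN28A higher. Their summed TPM was 3106 to 3441 on LN-521 against 3014 to 3236 on LN-521+LN-221. In the fits that left out 1 library FOXD3, NANOG and TDGF1 were called in all 6. POU5F1 lost its call without LN-521+LN-221 replicate 2, LIN28A without LN-521 replicate 3 or LN-521+LN-221 replicate 2 or 3, and KDR without LN-521 replicate 3 or LN-521+LN-221 replicate 3. ETS1 kept its call without LN-521 replicate 1 or 2, and DCX without LN-521 replicate 1, and both lost it in the other fits. DCX also lost its call with DESeq2 (adjusted p = 0.0616). With limma on the TPM values TDGF1 alone among these marker genes was called in all 3 settings. POU5F1, NANOG and FOXD3 were called with limma on rescaled TPM only, and LIN28A, KDR, ETS1, DCX and THY1 in none of the 3. Whether these shifts bear on the small differences of ESRP2 and GRHL2 was not tested.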

How the data were processed

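Total RNA of 6 H1 wells was sequenced as stranded libraries in 150 bp read pairs, per the labels' protocols. Cutadapt, STAR 2.5.2b, RSEM 1.2.31 and the build hg38 are listed, with no stated role, in the submitters' processing notes. The authors deposited expected counts per gene, of which 6.08% to 6.67% per library were not whole. The authors also deposited TPM values, which are corrected for length and sum to the same total in each library. Symbols came from a table holding 93.1% of the gene IDs.

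Expected counts were rounded, filtered with filterByExpr (minimum count 10), scaled by TMM and tested with edgeR 4.0.16 (R 4.3.3, robust quasi-likelihood fit, all 6 libraries, no replicate block). P-values were adjusted by Benjamini-Hochberg over all genes tested, with a threshold of 0.05. Standard errors were recovered from the fold change and its F statistic. Alternatives used DESeq2 1.42.0 and limma 3.58.1 with a mean-variance trend on log2(TPM + 1) and log2(TPM + 0.1), among others. The functions were tested on simulated counts. Seed matches were searched in GENCODE 29 transcripts.

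The 10 genes and the lists were chosen with earlier results of these data known. All 10 genes are named. So are all antisense neighbours in the table, the list genes past the threshold, and otherwise the 3 list genes with the highest mean TPM. Other genes were chosen after their values were seen. Intervals for single wells were not computed, and depth limits the genes with few reads.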

Additional observations from a re-analysis of the deposited data

How the results depend on the processing

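None of SNAI1, VIM, ESRP1, ESRP2, GRHL2 and OVOL1 was called in any setting run: RLE factors, library size alone, no filter, a filter of 1 CPM, removal of 7SL, 7SK, ribosomal and mitochondrial RNA, DESeq2, limma on TPM, the replicate block, a threshold of 0.1, a GC correction chosen after seeing the data, and each library left out. ZEB2 was called in none of the settings that tested it: it fell below the filter of 1 CPM and that of the limma settings, and DESeq2 gave it no adjusted p. All genes called were 446, and 718 with no filter, 62 and 61 with limma on log2(TPM + 1) and log2(TPM + 0.1), 89 with limma on rescaled TPM, 725 at the threshold of 0.1, 934 with the GC correction and 646 with the replicate block. List genes called were 7, and 13 with no filter, 0 with each limma setting, 14 with the GC correction and 12 with the replicate block. Leaving out libraries gave 194 to 1179 genes, 3 to 17 list genes, 0 regulators, and 8 to 10 regulators at an unchanged rank of level. The sources state no pairing of wells by number, and the main fit used none. Deviations of same-numbered wells from their coating mean correlated at 0.011 on average, and at -0.0057 for other pairs. With 3 wells per coating these values cannot decide whether the wells were paired. The sign of ESRP1 turned with limma, to 0.064 and 0.065 on TPM and 0.027 on rescaled TPM, and ranged from -0.029 to 0.012 over the fits without a library. In those fits SNAI1 ranged from -0.112 to 0.187, OVOL1 from -0.121 to 0.0098, and ZEB2 from 0.084 to 0.639. For none of these was the cause tested. With 1 to 18 reads per library, differences of SNAI2, ZEB1, ZEB2 and TWIST1 are limited by depth.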

Other observations

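The ratio of a gene's reads to its TPM gives the transcript length that the quantification assigned to it. Scaled on 566 genes with 1 annotated transcript, this length was 1616 to 1620 bases for SNAI1, which has 1 annotated transcript, and 1807 to 1819 bases for VIM. For ESRP1 it was 3070 to 3186 bases over the 6 libraries. For ESRP2 it was 2704 to 2889 bases and for GRHL2, with 1420 to 1680 reads, 3442 to 4019 bases. For ZEB1, with 25 annotated transcripts and at most 13 reads, it ran from 1584 to 4715 bases, and for ZEB2, with 48 transcripts, from 1351 to 4146 bases, so TPM values of these genes do not follow their reads.

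Of 6 ratios formed between the TPM of pairs of these genes, 5 overlapped between the coatings. GRHL2 over OVOL1 was 5.496 to 6.76 on LN-521 against 6.36 to 7.67 on LN-521+LN-221, and VIM over ESRP1 was 2.53 to 2.72 and 2.54 to 2.72. The ratios of VIM and ESRP1 to ZEB1 and of SNAI1 to SNAI2 rest on few reads and overlapped widely. ESRP1 over ESRP2 was 5.96, 5.17 and 6.07 on LN-521 against 6.50, 6.77 and 6.90 on LN-521+LN-221. The ratios were formed after the values of the genes were seen and were not tested.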
